A study of Mus musculus with 16 samples.

Results

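The 10 genes described here encode the core, ATPase and ARID subunits of the SWI/SNF chromatin remodelers: *Arid1a*, *Arid1b*, *Arid2*, *Pbrm1*, *Smarca4*, *Smarca2*, *Smarcb1*, *Smarcc1*, *Smarcc2* and *Smarce1*. They were picked by gene symbol, not by their values, from a table of 25054 genes, and all 10 passed the filter on low counts. Earlier results of these data were known when they were picked. RNA was sequenced from 16 mouse osteosarcomas. All mice carried an inducible Cre driven by Osterix and floxed alleles of both *Trp53* and *Rb1* (OsxCreERT2+/-;p53fl/fl;Rb1fl/fl), received 400 µg of tamoxifen per gram of body weight (20 mg/mL) at 1 month of age, and were more than 6 months old and of both sexes. The 8 tumors labeled KO also had both *Arid1a* alleles floxed (Arid1afl/fl), and the 8 WT tumors had no floxed *Arid1a*. The KO tumors (Massa, Medusa, Montana, Ohio, Prince, Grilka, Zelda and Oregon) carry 8 animal names and no body site. The WT tumors carry 4 animal codes, with 4 tumors from mouse N42 (R pelvis, R femur, L limb and L shoulder), 2 from N43 (spine and pelvis), 1 from N215 (R hind limb) and 1 from N25 (lung), so the 8 WT values are not 8 independent animals. The Cre is active in cells that express Osterix at the time of tamoxifen, and their descendants inherit the deletion. Vessels, blood, immune cells and other host cells of other descent would keep intact *Arid1a*, which was not checked here.

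SWI/SNF complexes use the energy of ATP to slide or evict nucleosomes and so open promoters and enhancers. Each complex is built on 1 ATPase, *Smarca4* (BRG1) or *Smarca2* (BRM). In the canonical BAF and PBAF complexes the core includes *Smarcb1*, *Smarce1* and a dimer made from *Smarcc1*, *Smarcc2* or both. In the canonical BAF complex the ARID position is filled by *Arid1a* or *Arid1b*, which exclude each other. In the PBAF complex it is filled by *Arid2*, beside the polybromo subunit *Pbrm1*, which reads acetylated histones. Several of these genes are tumor suppressors in human cancers, and cells that lose *Arid1a* are known to depend on *Arid1b*. The question put to the counts was whether the balance between paralogs differed by *Arid1a* genotype.

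Counts can be compared within a paralog pair only if a read can be assigned to 1 of the 2 genes. The coding stretches around the longest run of identical bases in each pair are printed for this reason. Each is 50 bases, the length of a read, in the sense direction of its gene from the GENCODE transcripts of GRCm38. Stretches that are alike apart from scattered mismatches were not searched for. Capitals mark the longest run of identical bases that the coding sequences of the pair share. It was 26 bases for *Arid1a* and *Arid1b*, where it is a run of GCG and GCA triplets, 20 bases for the ATPases and 26 bases for *Smarcc1* and *Smarcc2*. The positions, all inside a single coding exon, are chr4:133753210-133753259 (minus strand) for *Arid1a*, chr17:4995959-4996008 (plus) for *Arid1b*, chr9:21635730-21635779 (plus) for *Smarca4*, chr19:26630870-26630919 (plus) for *Smarca2*, chr9:110213557-110213606 (plus) for *Smarcc1* and chr10:128485608-128485657 (plus) for *Smarcc2*.
Arid1a: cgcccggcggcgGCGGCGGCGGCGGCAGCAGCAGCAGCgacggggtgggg
Arid1b: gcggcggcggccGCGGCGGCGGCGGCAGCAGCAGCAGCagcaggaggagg
Smarca4: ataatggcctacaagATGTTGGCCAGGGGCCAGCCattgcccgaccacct
Smarca2: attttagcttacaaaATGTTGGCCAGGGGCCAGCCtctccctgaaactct
Smarcc1: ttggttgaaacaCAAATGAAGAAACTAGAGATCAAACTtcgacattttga
Smarcc2: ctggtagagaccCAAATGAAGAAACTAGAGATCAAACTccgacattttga

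With noncoding exons included, the longest shared run was 29 bases for *Arid1a* and *Arid1b*, 20 for the ATPases and 26 for *Smarcc1* and *Smarcc2*, so no exact 50-base read fits both genes of a pair. Reads aligned with mismatches were not covered by this check. *Smarce1* was the exception among the members with respect to other loci: 1006 of its 6704 distinct 50-base stretches also occur in transcripts of other genes, mainly processed copies such as Gm8494, whereas the share was at most 3.29% for each of the other 9 members and 0% for *Arid1b* and *Smarcc2*. *Smarce1* is therefore reported as less certain.

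The libraries differed in depth and in cellular content. Total counts ranged from 1109487 to 15059640 in KO (median 5367670) and from 7806160 to 16962329 in WT (median 14828152). In Massa, the shallowest library, the 10 genes had between 15 and 186 counts each, and in Grilka between 35 and 681. The 15 counts of *Smarcb1* in Massa carry an exact Poisson 95% interval of 8.40 to 24.7, which covers counting error only. Values are given in CPM, the count of a gene scaled to the same total in every library after TMM normalization of the library sizes. The summed level of 8 osteoblast genes ranged from 444 to 42310 CPM in KO and from 1842 to 54678 CPM in WT. No osteoblast gene was at 0 in every tumor of a group. *Sp7*, the gene of Osterix itself, *Bglap* and *Dmp1* each had no count in 1 KO tumor, and *Bglap* had none in 1 WT tumor. The KO zeros were 2 genes in Massa, where 1 count equals 2.23 CPM, and 1 gene in Prince. Skeletal muscle genes reached 218758 CPM in Montana and 261594 CPM in Oregon, salivary gland genes 104023 CPM in Prince, and lung genes 11041 CPM in Massa and 26347 CPM in N25 lung. In Zelda, liver genes reached 1192 CPM and erythroid genes 1444 CPM, against at most 0.907 and 481 CPM in WT. A later setting, chosen after seeing the data, kept only Medusa and Ohio as KO tumors. It left out the KO tumors named here for low counts or high marker sums: Massa, Grilka, Montana, Oregon, Prince and Zelda. Of 8 macrophage genes, 7 were lower in KO in edgeR at an adjusted p under 0.05, against 2.15% of all genes. The summed level of the 8 was 120 to 505 CPM in KO and 296 to 1745 CPM in WT. The part that these cells play in the values of the 10 genes was not tested, and in bulk RNA fewer cells of a type cannot be told apart from less RNA per cell.

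*Arid1a* itself (chr4:133679008-133756769, minus strand), the DNA-binding subunit that defines canonical BAF and the gene targeted in the KO mice, was counted over all its exons. In KO it measured 107 CPM in Massa, 122 in Montana, 164 in Zelda, 166 in Oregon, 192 in Ohio, 234 in Medusa, 237 in Prince and 270 in Grilka. In WT it measured 125 in N42 R pelvis, 147 in N42 L limb, 157 in N42 L shoulder, 166 in N43 pelvis and in N43 spine, 168 in N25 lung, 172 in N42 R femur and 236 in N215 R hind limb. The groups overlapped, with 2 KO tumors above and 2 below the whole WT range. Means were 187 ± 57.5 CPM in KO and 167 ± 31.8 CPM in WT (SD, n = 8 each). The groups differed by 0.16 on the log2 scale (SE 0.22, edgeR quasi-likelihood test, adjusted p = 0.715), with a 95% interval of −0.31 to 0.63. The lower bound corresponds to 0.808 times the WT level. A count over the whole gene does not separate floxed exons from the rest, so it does not check the deletion, and the tumors are named throughout by their labels.

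**Figure D1:**
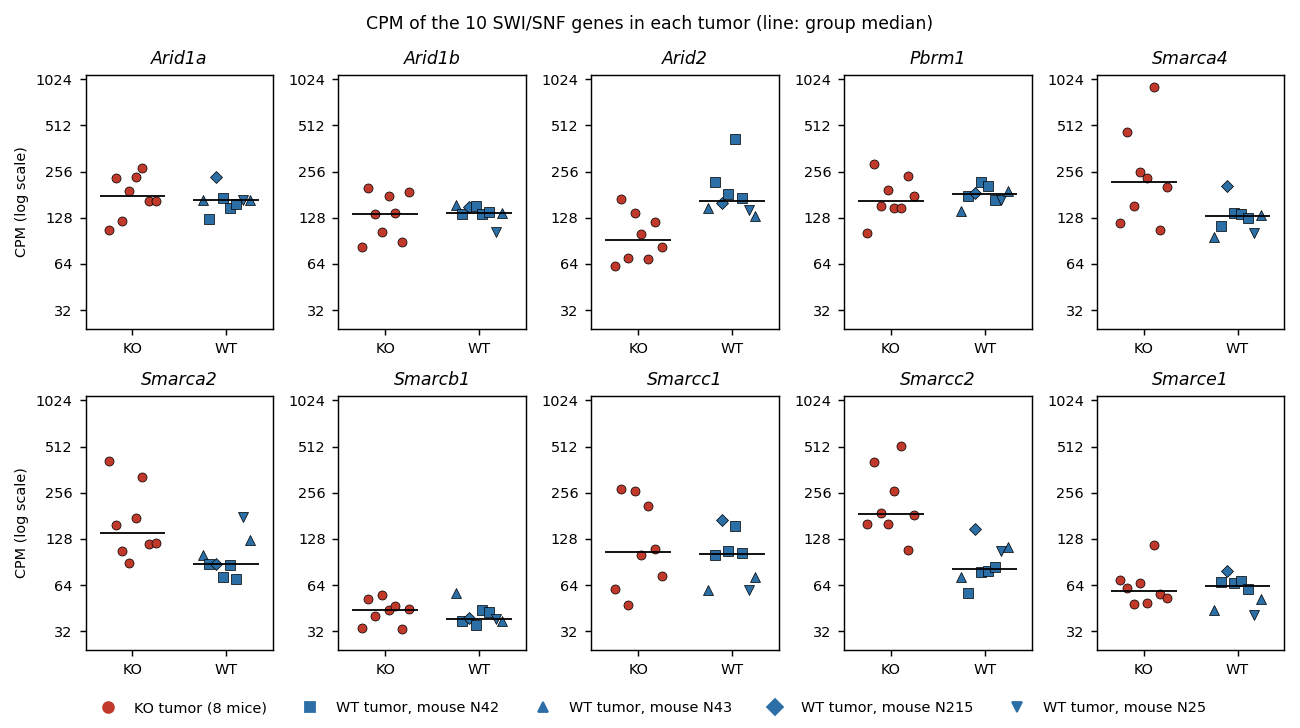
CPM (log scale) of each of the 10 genes in the 8 KO tumors (red circles) and the 8 WT tumors (blue, 1 symbol per mouse), with the group median as a line. All 8 KO values of *Smarcc2* and *Smarca2* lie above the WT median, 7 of 8 KO values of *Arid2* lie below it, and the groups overlap for every gene.

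Across the 10 genes the KO and WT tumors differed most in *Smarcc2*, which rose 2.69-fold in KO, while *Smarca4* and *Smarca2* had higher and *Arid2* lower fitted levels that did not pass the threshold. The edgeR test called 1 of the 10 genes at an adjusted p under 0.05, against 4.01% of the 15413 genes tested. At an unadjusted p under 0.05 there were 4, with 3 higher and 1 lower in KO, against 23% of all genes, 13.3% higher and 9.75% lower. No member had groups that did not overlap, against 0.415% of all genes. The median log2 fold change was 0.13 over the 10 genes and 0.10 over all genes tested. DESeq2 called 3 of the 10, *Smarcc2*, *Smarca4* and *Arid2*, against 12.5% of its genes. With counts summed per mouse, and in limma-voom with a random effect for the mouse, no member was called, against 0.0625% and 0.11% of genes.

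Of the other ARID subunits, *Arid1b* (chr17:4994332-5347656, plus strand), the paralog that can take the place of *Arid1a*, had the same mean level in both groups. It ranged from 82.5 CPM in Massa to 201 in Medusa in KO (median 136) and from 103 in N25 lung to 156 in N43 spine in WT (median 138). Medusa, Oregon and Prince were above the whole WT range, and Massa and Zelda were below it. Its log2 fold change was 0.01 (SE 0.22, edgeR adjusted p = 0.984), with a 95% interval of −0.44 to 0.46, or up to 1.38-fold higher in KO.

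*Arid2* (chr15:96287518-96404992, plus strand), the ARID subunit of PBAF, measured 62.5 CPM in Massa, 68.5 in Grilka, 69.6 in Montana, 82.2 in Oregon, 101 in Prince, 119 in Zelda, 137 in Ohio and 169 in Medusa. In WT it measured 131 in N43 pelvis, 144 in N25 lung, 147 in N43 spine, 159 in N215 R hind limb, 172 in N42 L shoulder, 182 in N42 R femur, 220 in N42 R pelvis and 419 in N42 L limb. In KO, 6 tumors were below every WT tumor, only Ohio and Medusa lay inside the WT range, and all 4 N42 tumors were above every KO tumor. Means were 101 ± 38.1 CPM in KO and 197 ± 94.1 CPM in WT (SD, n = 8 each). The log2 fold change was −0.96 (SE 0.29, 95% interval −1.56 to −0.35), which did not pass the threshold (edgeR adjusted p = 0.0660). It passed without Medusa, at −1.11 (edgeR adjusted p = 0.0484). It was −0.71 without the N42 L limb tumor (edgeR adjusted p = 0.130), −0.48 without mouse N42 and −0.41 with Medusa and Ohio as the only KO tumors.

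The high *Arid2* value of N42 L limb was shared by its neighbors on chromosome 15. Each member was examined in the tumor in which it stood farthest above the median of the other tumors of its group, a comparison added after the values were seen. For *Arid2* this was N42 L limb, 1.40 above the others on the log2 scale, and all 8 tested genes within 1 Mb were more than 0.5 above the others in that tumor, with a median of 1.60, against 14.2% of all genes. Among them *Scaf11*, a splicing-associated gene next to *Arid2*, was at 465 CPM against at most 216 in the other WT tumors, and *Slc38a2*, an amino acid transporter, at 941 against at most 388. About 3 Mb before *Arid2*, 4 adjacent genes were higher still: *Gxylt1*, a xylosyltransferase, at 830 CPM against at most 114 in any other of the 16 tumors, *Yaf2*, a Polycomb-associated gene, at 336 against at most 35.6, *Pphln1* at 330 against at most 59.1, and *Zcrb1*, an RNA-binding protein gene, at 278 against at most 100. In between, 5 genes at a distance of 1.48 to 1.98 Mb before *Arid2* were −2.10 to 0.07 from the median of the other WT tumors. On the other side, 30 genes at 1.34 to 2.61 Mb after *Arid2* had a median of 0.56. All 8 neighbors within 1 Mb were 0.68 to 3.56 higher in the L limb tumor than the mean of the other 3 tumors of the same mouse. For the other 9 members the neighbors' median in the corresponding tumor lay between −0.32 and 0.58.

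**Figure D2:**
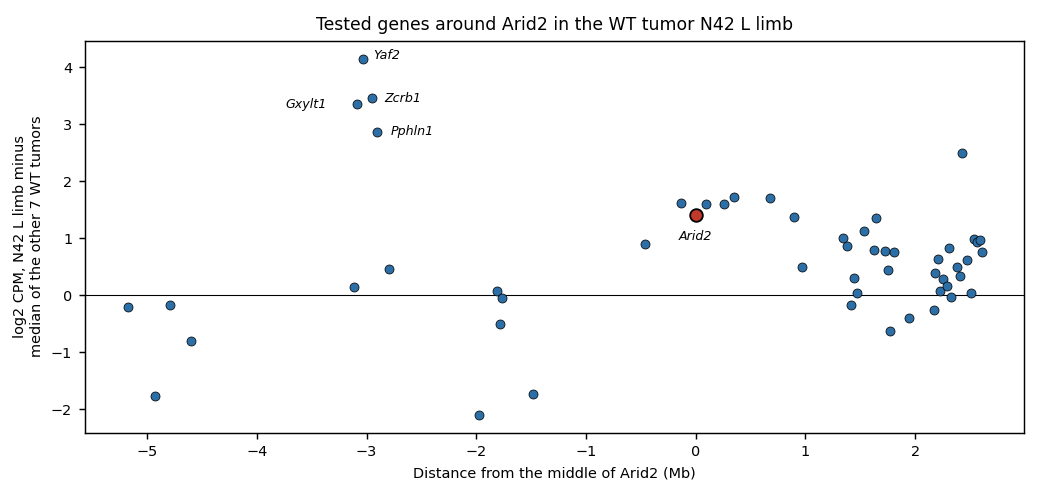
Difference in log2 CPM between the WT tumor N42 L limb and the median of the other 7 WT tumors (vertical axis) for each tested gene by its distance in Mb from the middle of *Arid2* (horizontal axis). *Arid2* (red) at 1.40 and its 8 neighbors within 1 Mb are all above 0.5, *Yaf2*, *Zcrb1*, *Gxylt1* and *Pphln1* lie at 2.87 to 4.15, and 5 genes at 1.48 to 1.98 Mb before *Arid2* lie at −2.10 to 0.07.

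*Pbrm1* (chr14:31019138-31121592, plus strand), the polybromo partner of *Arid2* in PBAF, had nearly the same mean in both groups, 182 CPM. It ranged from 103 CPM in Massa to 287 in Medusa in KO (median 164) and from 142 in N43 spine to 220 in N42 R femur in WT (median 182). Medusa and Zelda were above and Massa was below the WT range. Its log2 fold change was −0.00 (SE 0.22, edgeR adjusted p = 0.996), with a 95% interval of −0.46 to 0.45.

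Both ATPases had higher fitted levels in KO that did not pass the threshold. *Smarca4* (chr9:21616169-21704230, plus strand) measured 106 CPM in Zelda, 118 in Massa, 154 in Montana, 204 in Oregon, 233 in Prince, 255 in Ohio, 462 in Medusa and 914 in Grilka. In WT it ranged from 96.0 in N43 spine over a median of 131 to 205 in N215 R hind limb. Grilka, Medusa, Ohio and Prince exceeded every WT tumor, and no KO tumor was below the WT range. The log2 fold change was 1.22 (SE 0.40, 95% interval 0.37 to 2.06, edgeR adjusted p = 0.0859). Without Grilka it was 0.73 (edgeR adjusted p = 0.157), and without Zelda it was 1.34 with an adjusted p of 0.0423 in edgeR.

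*Smarca2* (chr19:26605050-26778322, plus strand) measured 88.6 CPM in Ohio, 107 in Montana, 118 in Zelda, 121 in Oregon, 159 in Medusa, 176 in Prince, 326 in Grilka and 415 in Massa, and in WT it ranged from 70.4 in N42 L shoulder over a median of 88.2 to 177.5 in N25 lung. All 8 KO tumors were above the WT median, but only Massa and Grilka exceeded the WT maximum. The log2 fold change was 0.89 (SE 0.33, 95% interval 0.19 to 1.59, edgeR adjusted p = 0.122), and it was 0.30 without these 2 tumors, which have the fewest counts. The highest *Smarca2* values of each group were in the tumors with the highest lung marker sums, Massa and N25 lung. These tumors also had the highest endothelial marker sums of their groups, 484 CPM in Massa and 1009 CPM in N25 lung. Grilka, next highest in KO, had a lung sum of 12.1 CPM and an endothelial sum of 149 CPM. The part of these cells in the *Smarca2* values was not tested.

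Of the core subunits, *Smarcb1* (chr10:75896769-75921617, minus strand), the subunit lost in rhabdoid tumors, varied least among the KO tumors. It ranged from 33.0 to 54.9 CPM in KO (median 44.2) and from 35.3 to 57.0 CPM in WT (median 38.6), with a log2 fold change of 0.08 (SE 0.18, 95% interval −0.29 to 0.46, edgeR adjusted p = 0.826). No KO tumor was above the WT range and Massa and Zelda were below it. *Smarce1* (chr11:99209047-99231017, minus strand), an HMG-box subunit, ranged from 48.2 to 117 CPM in KO and from 40.9 to 79.4 CPM in WT. Its log2 fold change was 0.11 (SE 0.22, edgeR adjusted p = 0.812) and turned to −0.07 without Grilka, its highest tumor. Adding the counts of its named pseudogene left it at 0.11.

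Of the 2 scaffold subunits, which can pair with each other in the complex, *Smarcc2* passed the threshold and *Smarcc1* did not. *Smarcc1* (chr9:110117708-110240178, plus strand) measured 47.2 CPM in Montana, 60.2 in Massa, 73.0 in Oregon, 99.8 in Prince, 111 in Zelda, 211 in Grilka, 262 in Ohio and 271 in Medusa, against 59.1 to 170 CPM in WT (median 102). The KO tumors lay on both sides of the WT range, with 3 above it and 1 below. Its log2 fold change was 0.46 (SE 0.38, 95% interval −0.34 to 1.26, edgeR adjusted p = 0.501). The 4 KO tumors with the lowest *Smarcc1* were also those with the lowest summed level of 8 proliferation genes, 13.5 CPM in Montana, 42.4 in Massa, 37.8 in Oregon and 19.7 in Prince, against 803 to 1994 CPM in the other 4 KO tumors and 135 to 854 CPM in WT. Montana, Massa, Oregon and Prince also had the lowest osteoblast sums among the KO tumors. These were 444 CPM in Prince to 2157 CPM in Massa, against 7066 to 42310 CPM in the other 4. The muscle, lung and salivary gland sums named for the KO libraries were in these tumors as well. The parts of cell division and of cell content in this difference were not tested.

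*Smarcc2* (chr10:128459248-128490482, plus strand) measured 109 CPM in Zelda, 160 in Ohio, 161 in Massa, 184 in Oregon, 188 in Montana, 263 in Prince, 408 in Medusa and 516 in Grilka. In WT it measured 56.7 in N42 R pelvis, 72.5 in N43 spine, 77.5 in N42 R femur, 79.0 in N42 L limb, 84.3 in N42 L shoulder, 106 in N25 lung, 114 in N43 pelvis and 148 in N215 R hind limb. In KO 7 of 8 tumors exceeded every WT tumor and 6 of 8 WT tumors were below every KO tumor, with Zelda, N43 pelvis and N215 R hind limb in the zone of overlap. Means were 248 ± 141 CPM in KO and 92.2 ± 28.9 CPM in WT (SD, n = 8 each). The log2 fold change was 1.43 (SE 0.32, 95% interval 0.75 to 2.11), the only one past the threshold (edgeR adjusted p = 0.0215). It was 1.27 with counts summed per mouse (edgeR adjusted p = 0.520) and 1.13 with a random effect for the mouse (limma adjusted p = 0.379). The call was lost when the WT tumors of a mouse were not counted as independent, and also in edgeR without N42 R pelvis (adjusted p = 0.0527), N42 R femur (0.0513) or N42 L shoulder (0.0525). With Medusa and Ohio as the only KO tumors it was 1.59 (edgeR adjusted p = 0.0354).

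**Figure D3:**
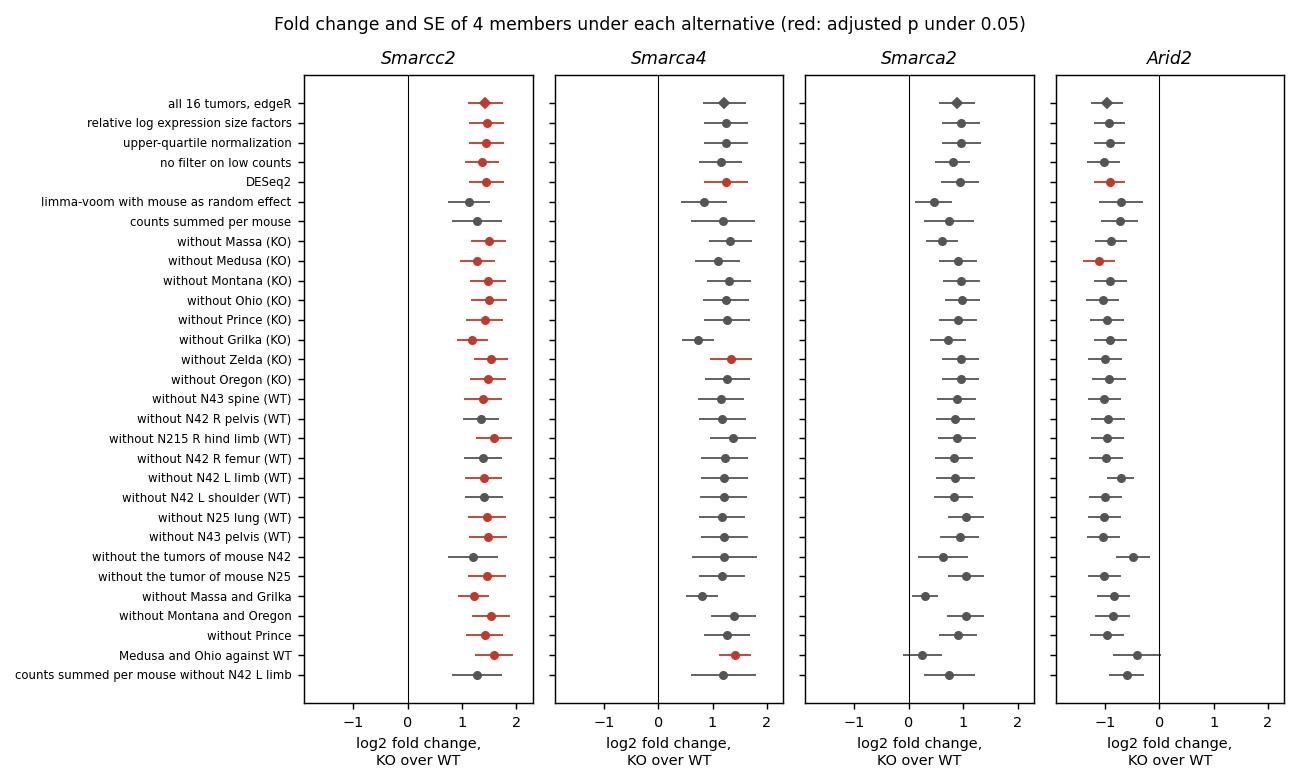
Log2 fold change (KO over WT, points) and SE (bars) of *Smarcc2*, *Smarca4*, *Smarca2* and *Arid2* with all 16 tumors (diamond) and under each alternative, with red for an adjusted p under 0.05. *Smarcc2* stays between 1.13 and 1.59, *Smarca4* between 0.73 and 1.41, *Smarca2* between 0.25 and 1.05 and *Arid2* between −1.11 and −0.41.

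The balance between paralogs was measured as the log2 ratio of their counts within each tumor, which does not depend on library size. The 4 ratios were compared by a two-sided exact permutation test over all 12870 ways of choosing 8 of the 16 tumors, with Benjamini-Hochberg adjustment over the 4 ratios and a smallest possible p of 0.000155. Differences are KO minus WT.

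The *Arid1b* to *Arid1a* ratio did not pass the test. It was −0.43 ± 0.46 in KO and −0.26 ± 0.28 in WT (SD, n = 8 each), with −0.17 between them (exact permutation p = 0.384, adjusted p = 0.512). KO values ran from −0.98 in Grilka to 0.18 in Oregon and WT values from −0.70 in N25 lung to 0.12 in N42 R pelvis. The KO tumors lay on both sides of the WT range, with Montana and Oregon above it and Grilka, Ohio and Zelda below it. For a scale per kb, the exons of all annotated transcripts of a gene were merged. Scaled per kb of exon, *Arid1b* made up 31.6 to 50.8% of the pair in KO (median 40.8%) and 35.9 to 49.7% in WT (median 44.7%).

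The ratio of *Smarca2* to *Smarca4* was −0.54 ± 1.13 in KO and −0.40 ± 0.65 in WT, a difference of −0.13 (exact permutation p = 0.787, adjusted p = 0.787, n = 8 each). Medusa, Ohio and Grilka had the lowest values, between −1.54 and −1.48, and Massa the highest at 1.80. In WT the range was −1.22 in N215 R hind limb to 0.79 in N25 lung. The highest value of each group was again in the tumor with the highest lung and endothelial marker sums. *Smarca2* took 77.8% of the 239 ATPase counts in Massa (exact 95% interval 72.0 to 82.9%, counting error only) and 63.4% of 4337 in N25 lung. It took 25.6 to 52.7% in the other 7 KO tumors and 30.1 to 51.3% in the other 7 WT tumors.

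The *Smarcc2* to *Smarcc1* ratio was higher in KO. It was 0.91 ± 0.89 in KO and −0.12 ± 0.66 in WT, a difference of 1.03 (exact permutation p = 0.0230, adjusted p = 0.0460, n = 8 each). The KO values were −0.71 in Ohio, −0.03 in Zelda, 0.59 in Medusa, 1.29 in Grilka, 1.33 in Oregon, 1.40 in Massa and in Prince, and 1.99 in Montana, and the WT values ran from −0.97 in N42 L limb to 0.83 in N25 lung. In 5 KO tumors it exceeded every WT tumor, and Ohio, Zelda and Medusa lay within the WT range. Among the 5 were Montana, Massa, Oregon and Prince, the KO tumors with the lowest proliferation and osteoblast sums. It passed in only 5 of the 16 comparisons that left out 1 tumor, those without Ohio, Zelda, N43 spine, N43 pelvis or N25 lung, with adjusted p from 0.00932 to 0.0904 over the 16 (exact permutation). Per kb of exon, *Smarcc2* made up a median of 77.8% of the pair in KO (46.3 to 84.9%) and 54.2% in WT (41.8 to 71.6%). The merged exons measured 7832 bases for *Smarcc1* and 5552 for *Smarcc2*, with coding sequences of 3312 and 3639 bases. These shares therefore depend on the annotated length. The difference was 0.79 with counts summed per mouse (exact permutation p = 0.154, adjusted p = 0.307, 8 KO and 4 WT mice). It was 0.51 without mouse N42, whose 4 tumors lay between −0.97 and −0.31, and 0.06 with Medusa and Ohio as the only KO tumors.

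The ratio of *Arid2* to *Arid1a* plus *Arid1b*, the PBAF ARID subunit against the BAF ARID subunits, was lower in KO. It was −1.72 ± 0.52 in KO and −0.73 ± 0.62 in WT, a difference of −0.99 (exact permutation p = 0.00218, adjusted p = 0.00870, n = 8 each). KO values ran from −2.56 in Grilka to −1.09 in Zelda and WT values from −1.28 in N215 R hind limb to 0.57 in N42 L limb. It was below every WT tumor in 6 KO tumors, and N42 L limb was the only tumor with more *Arid2* counts than *Arid1a* and *Arid1b* counts together. The difference was −0.80 without N42 L limb (exact permutation, adjusted p = 0.0186). With counts summed per mouse it was −0.83 (exact permutation p = 0.0283, adjusted p = 0.113, 8 KO and 4 WT mice), and without mouse N42 it was −0.58 (exact permutation, adjusted p = 0.267).

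**Figure D4:**
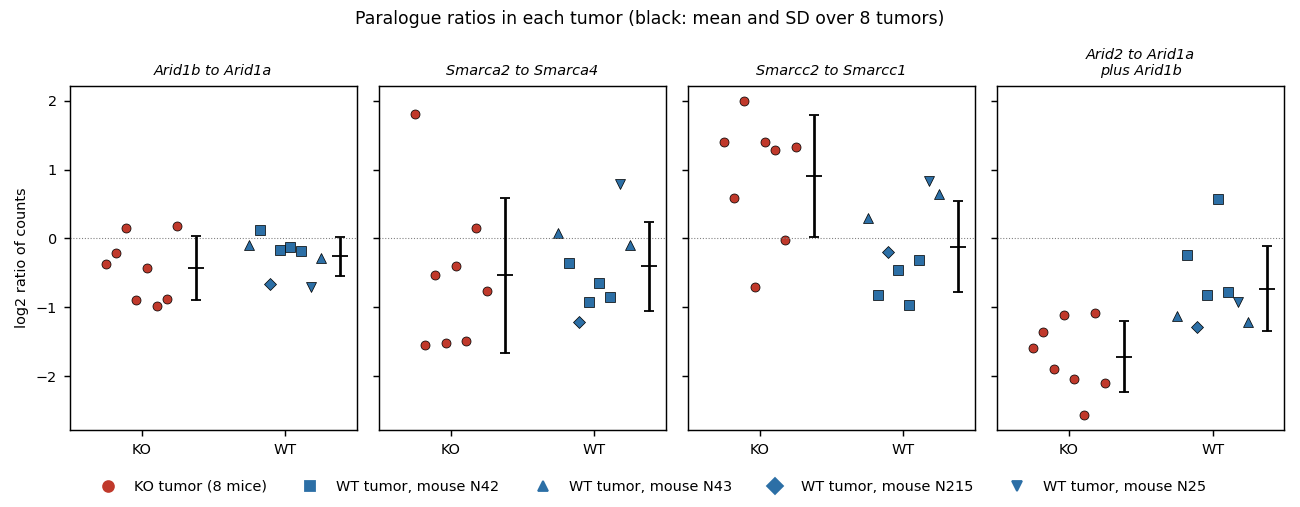
Log2 ratio of counts (vertical axis) in each KO tumor (red) and WT tumor (blue, 1 symbol per mouse) for the 4 paralog ratios, with the mean and SD of each group in black. *Smarcc2* to *Smarcc1* averages 0.91 in KO and −0.12 in WT, *Arid2* to *Arid1a* plus *Arid1b* averages −1.72 and −0.73, and the groups overlap in every panel.

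Apart from the ratios of counts, levels of different genes were compared per kb of exon, with the exons of all annotated transcripts merged. This length was 14269 bases for *Smarca2* (46 transcripts), 7930 for *Smarcb1* (6 transcripts) and 6475 for *Smarca4* (4 transcripts). A longer merged length lowers the value of a gene, so the order depends on the annotation as well as on the RNA. In WT the medians fell from 20.6 CPM per kb for *Pbrm1* and 20.2 for *Smarca4* over 15.4 for *Arid2*, 14.7 for *Smarcc2*, 14.5 for *Arid1a*, 13.1 for *Smarcc1*, 10.9 for *Arid1b*, 9.49 for *Smarce1* and 6.18 for *Smarca2* to 4.87 for *Smarcb1*. In KO the order was *Smarca4* at 33.8, *Smarcc2* at 33.5, *Pbrm1* at 18.6, *Arid1a* at 15.6, *Smarcc1* at 13.4, *Arid1b* at 10.8, *Smarca2* at 9.79, *Smarce1* at 8.80, *Arid2* at 8.53 and *Smarcb1* at 5.58. *Arid2* thus had rank 3 in WT and rank 9 in KO, and *Smarcc2* rank 4 and rank 2. Most neighbors in these orders changed places between tumors: *Smarca4* was above *Smarcc2* in 2 of 8 KO tumors although its median was higher, and in WT *Arid2* was above *Smarcc2*, *Smarcc2* above *Arid1a* and *Arid1a* above *Smarcc1* in 5 of 8 tumors each. *Arid2* and *Smarcb1* in KO were the only neighbors in either order with the same direction in all 8 tumors.

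The 10 genes varied more among KO than among WT tumors, as did most genes. The SD of log2 CPM was higher in KO for 9 of the 10, all but *Arid2*, and for 90.4% of all genes tested. Its median over the members was 0.51 in KO and 0.34 in WT, against 1.11 and 0.51 over all genes. In KO all 10 members were below the all-gene median, with *Smarcb1* lowest at 0.27 and *Smarca4* and *Smarcc1* highest at 1.04 and 0.98. In WT *Arid2* and *Smarcc1* were above it. Pairs of tumors from the same WT mouse differed less than pairs from different WT mice for 6 of 10 members, and by most for *Smarcc1* (median absolute log2 difference 0.29 within 7 pairs and 0.77 in 21 pairs between mice) and *Smarce1* (0.12 and 0.46). For *Arid1a* the medians were 0.22 within and 0.19 between WT mice and 0.51 over 28 pairs of KO tumors.

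Some members followed each other across the 16 tumors, which come from 12 mice and share the differences in depth and cell content described for the libraries. These correlations of log2 CPM are descriptions. *Smarca4* and *Smarcc2* were closest, with Pearson's r = 0.88 and Spearman's rho = 0.75 over 16 tumors, and r was 0.92 within KO and 0.64 within WT. *Arid2* and *Pbrm1* had r = 0.56 and rho = 0.54, with r of 0.87 within KO and 0.46 within WT. The most negative pair was *Arid2* and *Smarca2* (r = −0.66, rho = −0.76), with −0.54 within KO and −0.40 within WT. For *Arid1a*, the closest member was *Smarca4* (r = 0.74, rho = 0.60), and r with *Arid1b* was 0.47. The 5 genes of the table most like *Arid1a* were *Hps4*, a lysosome-related organelle gene (r = 0.93, rho = 0.84), *Ppil2*, a cyclophilin-type isomerase gene (0.91 and 0.88), *Phf12*, a PHD-finger corepressor gene (0.90 and 0.76), *Ppfia3*, a liprin gene (0.90 and 0.87), and *Atf6b*, an unfolded protein response gene (0.89 and 0.83). With each mouse counted once, the r of these 5 genes lay between 0.89 and 0.95 over 12 mice. They were picked for their r in the same tumors, so this is not an independent check.

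Of 21 other SWI/SNF subunits, 19 were tested, with *Actl6b* and *Dpf1*, 2 subunits of neuronal BAF, left out for low counts. The edgeR test called 1 higher and 0 lower in KO, against 1.86% and 2.15% of all genes. At an unadjusted p under 0.05, 5 were higher and 0 lower, against 13.3% and 9.75% of all genes. DESeq2 called 4, against 12.5% of its genes, and limma-voom 0, against 0.11%. The fitted values were above 0 for 10 and below 0 for 9, with a median of 0.18. *Brd9*, the bromodomain subunit of noncanonical BAF, rose by 0.95 (SE 0.26, edgeR adjusted p = 0.0444), from 21.3 to 38.6 CPM in WT to 34.4 to 94.0 in KO, with 5 KO tumors above every WT tumor. It was called in DESeq2 and lost with counts summed per mouse, and of the 16 edgeR fits that left out 1 tumor it was called in 5, those without Massa, Ohio, Prince, Zelda or N215 R hind limb.

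The largest differences among the other subunits did not pass the threshold in edgeR. *Dpf3*, a PHD-finger subunit known from heart and muscle, had a log2 fold change of 3.21 (SE 1.09, adjusted p = 0.0923), and *Smarcd3*, the subunit of muscle BAF, 1.87 (SE 0.63, adjusted p = 0.0921). Both were highest in Oregon and next in Montana, the tumors with the highest muscle marker sums: 59.6 and 27.8 CPM for *Dpf3* and 192 and 162 CPM for *Smarcd3*, against at most 3.86 and 34.2 CPM in WT. *Bcl11b*, a zinc-finger subunit of lymphoid and neural cells, had −1.83 (SE 1.09, edgeR adjusted p = 0.323). The most abundant per kb were *Actb*, which is also the cytoskeletal actin, with −0.35 (SE 0.36), *Smarcd2* with −0.32 (SE 0.24) and *Phf10*, a PBAF subunit, with −0.01 (SE 0.23), none past the threshold.

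The 20 ATPases of the other remodeler families, ISWI, CHD, INO80 and related genes, were all tested. The edgeR test called 0, against 4.01% of all genes. At an unadjusted p under 0.05 there were 2, both higher in KO, against 13.3% of all genes. DESeq2 called *Chd4* and *Ercc6*, against 12.5% of its genes, and limma-voom called 0, against 0.11%. The fitted value was above 0 for 18 of 20, with a median of 0.34, against a median of 0.10 over all genes tested. The share of all genes above 0 was not determined. The largest were *Ercc6*, a transcription-coupled repair gene, at 1.06 (SE 0.36, edgeR adjusted p = 0.0968), *Chd4*, the NuRD ATPase, at 0.64 (SE 0.27, edgeR adjusted p = 0.168) and *Ino80* at 0.60 (SE 0.29, edgeR adjusted p = 0.219). *Chd4* was also the most abundant per kb, followed by *Atrx* at 0.35 (SE 0.34) and *Chd3* at 0.35 (SE 0.64). Beside these lists, the ATPases of SWI/SNF had log2 fold changes of 1.22 for *Smarca4* and 0.89 for *Smarca2*.

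**Figure D5:**
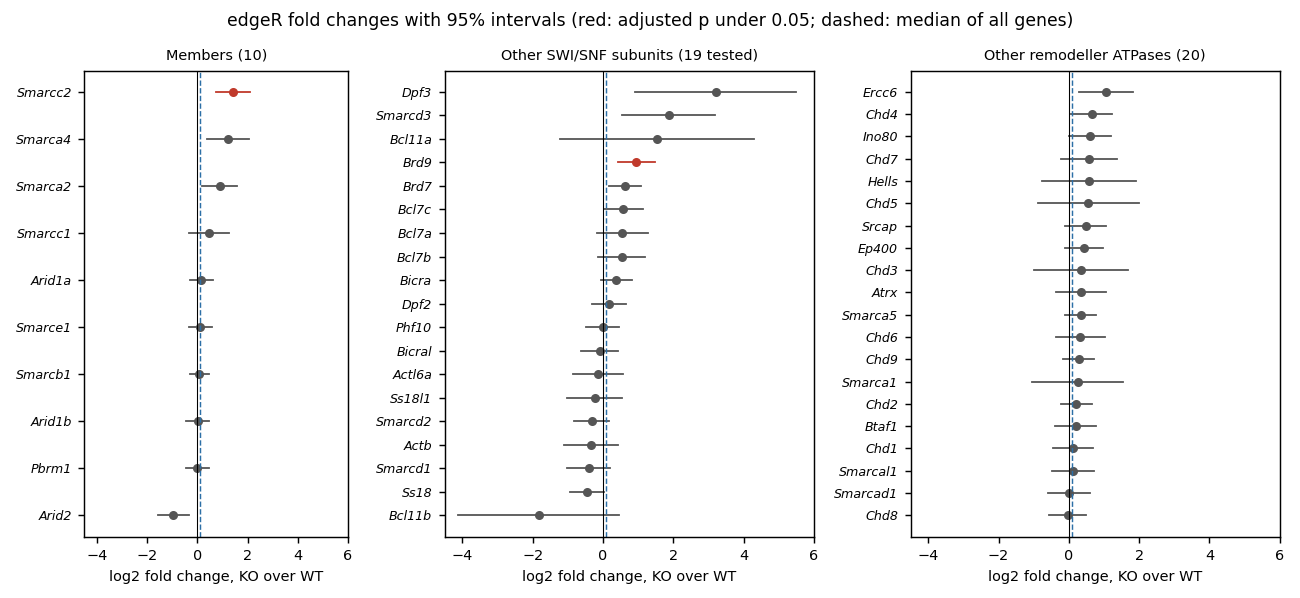
Log2 fold change (KO over WT, points) with 95% intervals (lines) for the 10 members, 19 other SWI/SNF subunits and 20 other remodeler ATPases, with red for an adjusted p under 0.05 in edgeR and a dashed line at the median of all genes, 0.10. *Smarcc2* at 1.43 and *Brd9* at 0.95 are the 2 genes in red, and the intervals of *Smarca4*, *Smarca2* and *Arid2* exclude 0 while their adjusted p-values do not pass.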

How the data were processed

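Per the study's methods and the labels, total RNA was depleted of ribosomal RNA, read from 1 end for 50 cycles, aligned to mm10 and Ensembl transcript models with Novoalign 2.08.01, and counted per gene with USeq. The authors deposited these raw counts per gene, without normalization, and then ran DESeq2 1.26.0. The use of strand in counting is not given in the sources used here. Exons of *Smarcc1* and *Pbrm1* overlap opposite-strand genes over 1.57% and 0.17% of their length, and those of *Smarca4* a same-strand RNA over 1.53%. Every gene listed has at least 6 counts in all.

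The groups come from the genotype labels. edgeR 4.0.16 in R 4.3.3 (TMM, filterByExpr with minimum count 10, minimum total 15, glmQLFit, glmQLFTest, no covariate) tested 15413 of 25054 genes, with Benjamini-Hochberg adjustment over all of them and a threshold of 0.05. Log2 CPM used a prior count of 2 and ratios a pseudocount of 0.5. DESeq2 1.42.0 and limma 3.58.1 (voom, mouse as random effect) were alternatives. A fit across genes and the permutation test were tested on simulated data. Positions and exon lengths come from GENCODE on GRCm38, which held 99.7% of the identifiers. Python 3.11.15 and scipy 1.17.1 were used for the ratios.

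The members and the gene lists were chosen with earlier results of these data known. Named are all 10 members, and of the other lists the genes past the threshold, the 3 largest changes and the 3 most abundant per kb. The labels do not say how the tumors of a mouse relate, so p-values over tumors measure the spread between these samples. Floors of 3 counts equal 6.69 CPM in Massa, 4.03 CPM in Grilka and 0.146 to 0.340 CPM in WT. Intervals of single counts and of shares of counts cover counting error only. Intervals of fold changes come from the edgeR fit and include the spread between tumors, which were counted as independent.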

Additional observations from a re-analysis of the deposited data

Results flagged for a closer look

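In 5 of 28 sets of 8 tumors (10 genes and 4 ratios, each in KO and in WT), the highest or lowest tumor stood apart from the nearest other by more than Dixon's 95% limit for 8 samples. Chance gives about 1 in 20 for sets of independent values. The WT sets hold several tumors of the same mouse and the 28 sets share tumors, so that rate does not apply directly here. On the log2 CPM scale, *Arid1b* was 6.69 in N25 lung with the next lowest WT tumor at 7.08, *Arid2* was 8.71 in N42 L limb with the next highest at 7.78, *Smarca4* was 7.68 in N215 R hind limb with the next highest at 7.11, and *Smarcb1* was 5.84 in N43 spine with the next highest at 5.45. In KO, *Smarce1* was 6.87 in Grilka with the next highest at 6.12. No ratio was among the 5.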

How the results depend on the processing

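The call of *Smarcc2* and its direction held under the other normalizations, without a filter on low counts, in DESeq2, and in 13 of the 16 fits that left out 1 tumor. It was lost in limma-voom with a random effect for the mouse (log2 fold change 1.13), with counts summed per mouse (1.27), without mouse N42 (1.20), with counts summed per mouse without N42 L limb (1.28), and without N42 R pelvis (edgeR adjusted p = 0.0527), N42 R femur (0.0513) or N42 L shoulder (0.0525). DESeq2 called *Arid2* (−0.91) and *Smarca4* (1.25), *Smarca4* was called with Medusa and Ohio as the only KO tumors (1.41), and edgeR called *Arid2* without Medusa (−1.11, adjusted p = 0.0484). The number of members called was 3 in DESeq2, 2 with Medusa and Ohio alone, and 0 in limma-voom, per mouse with or without N42 L limb, and without mouse N42.

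Small fitted values changed sign. *Arid1b* was −0.0597 without the filter, −0.0412 without N25, −0.0839 without Montana and Oregon and −0.0484 without Prince. *Pbrm1* was 0.0340 with relative log expression, 0.0321 with upper-quartile scaling, 0.0423 in DESeq2, 0.0399 in limma-voom, 0.0773 per mouse, 0.12 without mouse N42, 0.10 without Massa and Grilka, 0.0292 without Montana and Oregon, 0.0325 without Prince, 0.36 with Medusa and Ohio alone, and 0.0864 per mouse without N42 L limb. *Smarce1* was −0.14 without Massa and Grilka. The *Arid1b* to *Arid1a* ratio was 0.00385 without mouse N42 and the *Smarca2* to *Smarca4* ratio was 0.0402 without N25.

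The *Smarcc2* to *Smarcc1* difference no longer passed per mouse (0.79), without mouse N42 (0.51), without Massa and Grilka (0.89), without Montana and Oregon (0.78), without Prince (0.96), with Medusa and Ohio alone (0.0639) and per mouse without N42 L limb (0.75), and it passed in 5 of the 16 comparisons that left out 1 tumor. The *Arid2* ratio no longer passed per mouse (−0.83), without mouse N42 (−0.58), with Medusa and Ohio alone (−0.51) and per mouse without N42 L limb (−0.73), and it passed in all 16. The cause of these changes was not tested.

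Over all genes the number called was 2517 in DESeq2, 17 in limma-voom, 10 per mouse, 9 per mouse without N42 L limb, 8 without mouse N42 and 372 without Montana and Oregon. Of the other subunits 4 were called in DESeq2, against 12.5% of its genes. The number was 0 without the filter, in limma-voom, per mouse with or without N42 L limb, without mouse N42 and without Massa and Grilka. Of the other ATPases 2 were called in DESeq2, against 12.5% of its genes. Without Massa and Grilka 2 were called, beside 890 of 16610 genes, and with Medusa and Ohio alone 4, beside 858 of 19260.

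Leaving out each tumor in turn gave log2 fold changes of 0.06 to 0.29 for *Arid1a*, −0.0933 to 0.0830 for *Arid1b*, −1.11 to −0.71 for *Arid2*, −0.14 to 0.0760 for *Pbrm1*, 0.73 to 1.37 for *Smarca4*, 0.62 to 1.05 for *Smarca2*, 0.02 to 0.16 for *Smarcb1*, 0.25 to 0.64 for *Smarcc1*, 1.19 to 1.59 for *Smarcc2* and −0.0727 to 0.22 for *Smarce1*. The ratios ranged from −0.25 to −0.09 for *Arid1b* to *Arid1a*, −0.46 to 0.0402 for *Smarca2* to *Smarca4*, 0.88 to 1.26 for *Smarcc2* to *Smarcc1* and −1.08 to −0.80 for *Arid2* to *Arid1a* plus *Arid1b*. Calls ranged from 0 to 2 members, 252 (without N42 L shoulder) to 1348 (without Zelda) of all genes, 0 to 2 other subunits and 0 to 1 other ATPases.

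No paired analysis was possible because KO and WT tumors came from different mice. The settings with Medusa and Ohio alone and per mouse without N42 L limb were chosen after seeing the data. The depth of Massa and Grilka limits their values, and the 4 WT mice limit every comparison per mouse.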
